A study of Mus musculus with 399 samples.

Results

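Transcripts of 35 genes of the cell division machinery were followed across 399 bulk RNA libraries from liver, gonadal fat, soleus muscle and pancreas of the mouse strain TALLYHO/Jng, written TH here, and its comparison strain C57BL/6J, written B6. The genes were taken by name from a fixed list, out of 56980 genes in the count tables. They comprise 12 genes of DNA replication in S phase (Rrm2, Tyms, Tk1, Pcna, Mcm2 to Mcm7, Cdc45 and Ccne2) and 23 genes of G2 phase and mitosis (Mki67, Top2a, Cdk1, Ccnb1, Ccnb2, Ccna2, Cdc20, Ube2c, Birc5, Aurka, Aurkb, Plk1, Bub1, Bub1b, Kif11, Kif20a, Kif23, Cenpe, Cenpf, Nusap1, Tpx2, Prc1 and Racgap1).

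TH is an inbred strain that becomes obese without a dietary cause and whose males become diabetic, and B6 is the common laboratory strain. The strains differ across the whole genome, so no single allele is compared. Male and female mice of each strain were weaned at 4 weeks onto chow or a high-fat diet and sampled at 5 weeks of age, after 1 week of feeding, or at 20 weeks, after 16 weeks of feeding. Each tissue therefore had 16 groups of 5 to 10 libraries (64 groups in all), with 96 libraries from liver, 96 from fat, 97 from soleus and 110 from pancreas. Within one tissue the libraries carry different animal numbers, and tissues share animals in part.

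A cell that commits to division first duplicates its DNA, and E2F factors switch on the genes for this step. The MCM proteins form the ring helicase that opens DNA, PCNA clamps the polymerase to its template, and ribonucleotide reductase (Rrm2), thymidylate synthase (Tyms) and thymidine kinase (Tk1) supply nucleotides. Mitotic genes are switched on later by the MuvB complex with B-Myb and FOXM1, which is tethered to promoters at an element called the CHR. Cyclin B with CDK1 starts mitosis, kinesins and the kinases AURKA, AURKB and PLK1 build and steer the spindle, BUB1 and BUB1B hold the checkpoint, and CDC20 and UBE2C drive the destruction of cyclin B that ends it. Organs of a weanling mouse still grow by division, while most hepatocytes, acinar cells and adipocytes of an adult are at rest, and the nuclei of muscle fibres do not divide.

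The promoters of both classes are shown first, because the classes moved apart in the data described below. RefSeq windows of 300 bases around the start of transcription (mouse build GRCm38.p6) were found for 29 of the 35 genes, 10 of S phase and 19 of mitosis. The CHR letters TTTGAA, read on both strands, stood in 73.7% of the mitotic windows, 20.0% of the S-phase windows and 18.1% of all 27025 windows. The letters CCAAT, to which NF-Y binds, stood in 89.5%, 80.0% and 37.9%, respectively. The E2F letters TTTGGCGC or TTTCCCGC stood in 40% of the S-phase windows, in 0.0% of the mitotic ones and in 1.6% of all. The shorter letters TTGGCGC or TTCCCGC stood in 40%, 15.8% and 6.9%, and on the other strand CCAAT reads ATTGG, which can overlap TTGGCGC. The 200 bases before the start are printed for 3 genes of each class, on the strand of the gene, with CHR, CCAAT and the shorter E2F letters in capitals. Mki67 lies at chr7:135716380-135716579, Top2a at chr11:99024190-99024389, Ccnb2 at chr9:70421555-70421754, Mcm2 at chr6:88898781-88898980 and Mcm6 at chr1:128359706-128359905, all on the minus strand, and Mcm5 at chr8:75109309-75109508 on the plus strand.
Mki67: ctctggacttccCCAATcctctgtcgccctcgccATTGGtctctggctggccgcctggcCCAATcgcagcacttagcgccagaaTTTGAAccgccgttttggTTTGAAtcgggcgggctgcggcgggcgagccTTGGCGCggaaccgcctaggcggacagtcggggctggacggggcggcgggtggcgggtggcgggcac
Top2a: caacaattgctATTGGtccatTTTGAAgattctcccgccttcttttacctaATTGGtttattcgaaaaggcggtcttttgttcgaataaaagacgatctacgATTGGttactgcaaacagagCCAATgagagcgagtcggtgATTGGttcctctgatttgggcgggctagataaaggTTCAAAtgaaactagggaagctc
Ccnb2: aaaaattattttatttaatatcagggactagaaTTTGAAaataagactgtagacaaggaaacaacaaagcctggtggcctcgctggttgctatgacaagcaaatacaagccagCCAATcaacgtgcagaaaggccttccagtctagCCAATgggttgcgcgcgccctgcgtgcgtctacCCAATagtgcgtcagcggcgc
Mcm2: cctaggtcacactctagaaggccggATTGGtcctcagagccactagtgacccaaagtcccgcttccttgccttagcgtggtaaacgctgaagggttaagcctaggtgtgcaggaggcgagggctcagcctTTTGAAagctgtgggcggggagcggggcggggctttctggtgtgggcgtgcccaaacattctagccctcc
Mcm5: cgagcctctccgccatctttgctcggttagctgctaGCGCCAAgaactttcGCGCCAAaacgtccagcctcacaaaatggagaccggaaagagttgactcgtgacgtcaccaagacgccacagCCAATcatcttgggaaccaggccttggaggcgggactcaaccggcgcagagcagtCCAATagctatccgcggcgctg
Mcm6: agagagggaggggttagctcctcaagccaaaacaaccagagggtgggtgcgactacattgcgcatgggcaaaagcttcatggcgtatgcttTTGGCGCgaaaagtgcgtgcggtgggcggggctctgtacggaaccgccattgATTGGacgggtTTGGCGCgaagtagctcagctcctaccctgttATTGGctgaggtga
In the 200 bases printed, Mki67 held 2 CHR, 3 CCAAT and 1 E2F matches, Top2a 2, 5 and 0, and Ccnb2 1, 3 and 0. Mcm5 and Mcm6 held no CHR match, 2 CCAAT and 2 E2F matches each, and Mcm2 held 1 CHR, 1 CCAAT and 0 E2F matches. The CHR letters are thus frequent in one class and near the background in the other, but a match of letters does not show binding, and single genes depart from their class.

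Median library totals were 6559752 counts in pancreas, 7773866 in fat, 11235896 in liver and 11488613 in soleus, with a range over all libraries of 1173484 to 22172450. In pancreas the 10 most abundant genes took a median of 64.56% of the counts, so the 35 genes together gave a median of 236 reads per library there, against 1531 in liver, 2530 in fat and 1119 in soleus. Single values in pancreas and soleus therefore rest on few reads. The tissue labels fit the markers, since the lowest summed level in any library was 33380 CPM for 5 acinar genes in pancreas, 26070 for 4 myofibre genes in soleus, 16070 for 4 hepatocyte genes in liver and 2663 for 4 adipocyte genes in fat. Male fat also held epididymis transcripts, up to 7017 CPM in a library. The male germ cell genes Prm1 and Tnp1 were higher in male than in female fat on chow at 5 weeks (log2 differences 8.54 and 8.85). In B6 female fat on high-fat, summed ovary and uterus markers reached 641.7 CPM at 20 weeks and myofibre markers 1559 CPM at 5 weeks. The part of such tissue in the fat levels was not tested. Of all libraries, 6 of male fat, 1 of soleus and 1 of pancreas lay more than 2 times the tissue's median distance from their group mean. They were kept, and counts without them are given with the processing alternatives. Each gene was tested with edgeR's quasi-likelihood test across all expressed genes of its tissue, with Benjamini-Hochberg adjustment over 19715 genes in fat, 17520 in soleus, 17243 in liver and 13367 in pancreas, and is said to have risen or fallen only where the adjusted p was under 0.05. All 35 genes were tested in liver and fat, and 33 each in soleus (without Bub1 and Cenpe) and pancreas (without Cdc45 and Bub1). Levels within a gene are CPM, counts scaled to the size of the library, and errors of log2 fold changes are standard errors. In bulk tissue, fewer dividing cells and less of a transcript per cell cannot be told apart.

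Levels were compared between genes and tissues per transcript length, in FPKM, as the mean of the 4 chow group means at 5 weeks. Mki67, which coats mitotic chromosomes and marks cycling cells, stood at 4.39 FPKM in pancreas, 1.99 in fat, 0.839 in liver and 0.0965 in soleus. At 20 weeks the same gene stood at 0.5, 0.881, 0.313 and 0.0183 FPKM, so that in FPKM fat and not pancreas was then highest. In CPM the order of these tissues at 5 weeks was the reverse. There the Mki67 group means over both diets ran from 20.5 to 71.2 in fat and from 9.66 to 23.9 in pancreas. In FPKM, 14 of the 23 mitotic genes were highest in pancreas at 5 weeks, 8 in fat and 1 in soleus. Of the 12 S-phase genes 6 were highest in pancreas, 5 in fat and 1 in liver. The liver gene was Tk1, at 5.47 FPKM in liver against 0.815 to 1.35 in the other tissues. Pcna was nearly flat in FPKM, between 6.34 and 8.03 in the 4 tissues at 5 weeks and between 5.88 and 8.04 at 20 weeks. It was not flat in CPM, where its 5-week group means ran from 31.7 to 46.6 in fat and from 5.1 to 8.8 in pancreas. These are means over groups and carry no test between tissues. Summed CPM of the mitotic genes on chow at 5 weeks ran, as group means, from 31.7 to 71.3 in pancreas and from 159.1 to 276.4 in fat. The order of tissues thus depends on the scaling, and how the deposited FPKM were scaled was not tested.

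**Figure D1:**
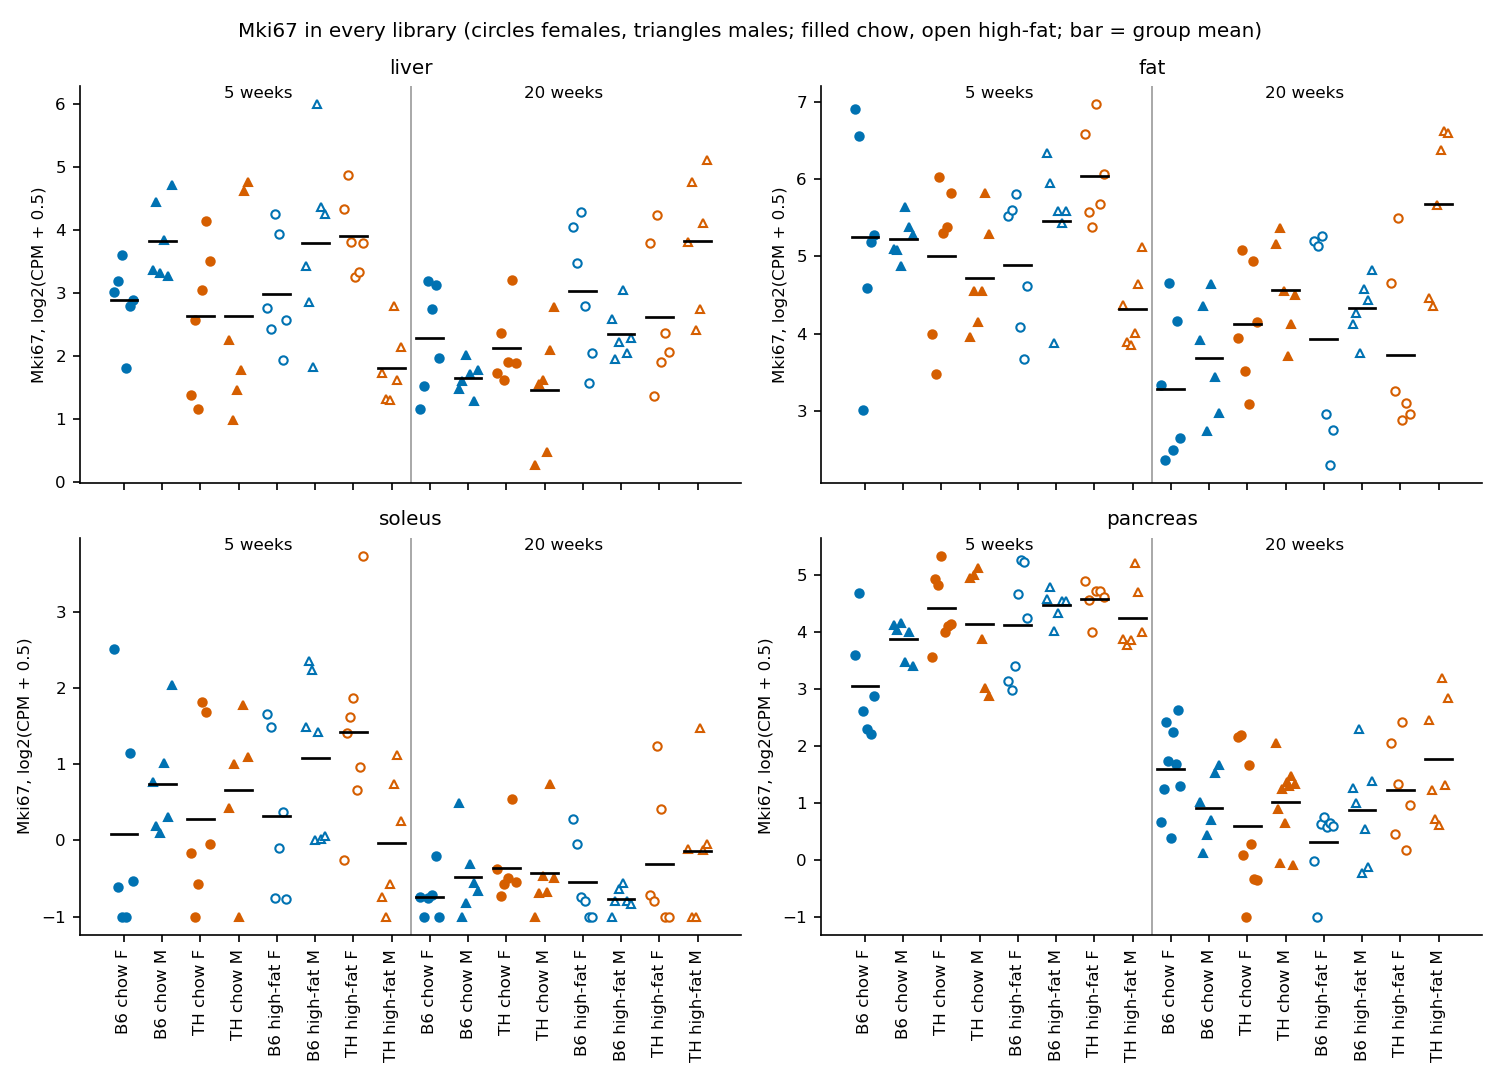
Mki67 in each of the 399 libraries, as log2(CPM + 0.5), in 4 panels for liver, fat, soleus and pancreas. Blue is B6 and orange TH, circles are females and triangles males, filled symbols chow and open symbols high-fat, and the bar is the group mean of the log values. In pancreas nearly all 20-week libraries lie below the 5-week ones of their strain, sex and diet, and in liver most 20-week TH males on high-fat lie above those on chow.

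In the liver, most mitotic genes fell between 5 and 20 weeks on chow in B6, and fewer passed in TH. In B6, 24 of 35 genes fell (19 of 23 mitotic and 5 of 12 S-phase) and none rose, where 15.6% of all genes passed the test and 9.4% passed as lower. The median over all 35 was -1.24 on the log2 scale, against -0.01 over all genes. The largest falls were in Cdc20, the activator of the anaphase-promoting complex (fell by 2.36 ± 0.52), Ccnb1, the main mitotic cyclin (fell by 1.94 ± 0.60), and Racgap1, which organises the cleavage furrow (fell by 1.91 ± 0.45). In TH, 10 of 35 fell, 7 mitotic and 3 S-phase, where 9.16% of all genes passed and 4.93% as lower. The largest falls were in Cdc20 (2.06 ± 0.54), Cdk1 (1.84 ± 0.35) and Mcm6 (1.77 ± 0.38), each given as the size of a fall. When libraries were summed over runs of consecutive animal numbers, as described at the end, 0 genes passed in B6 and 1 in TH by edgeR. On these sums 2.86% and 1.92% of all genes passed, and the medians were close to those over libraries.

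The Mki67 levels show how uneven this was between libraries. In B6 males Mki67 ran from 9.13 to 25.8 CPM at 5 weeks (median 11.8) and from 1.93 to 3.54 at 20 weeks (median 2.65), and the groups did not overlap. B6 females had 3.00 to 11.7 (median 7.22) and then 1.74 to 8.67 (median 4.79), and these groups overlapped. TH females had 1.72 to 17.1 (median 6.59) and then 2.58 to 8.69 (median 3.23). TH males had 1.47 to 26.7 (median 3.60) and then 0.703 to 6.39 (median 2.50), so that the wide 5-week group spanned the 20-week one. Over sexes, Mki67 fell by 1.49 ± 0.43 in B6 (adjusted p = 0.00897, edgeR) and by 1.38 ± 0.43 in TH (adjusted p = 0.0299).

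Among the S-phase genes of the liver, Rrm2 fell in B6 by 1.06 ± 0.22, Mcm5 fell by 0.97 ± 0.29, and Pcna was level at -0.00 ± 0.07 (adjusted p = 0.985). Foxm1, the transcription factor of mitotic genes, fell by 1.48 ± 0.35 in B6, and Rbl1 by 0.64 ± 0.18, the 2 of 12 tested genes of the E2F and Rb list that moved. None of the 8 G1 cyclins and kinases passed in B6 by edgeR. Of 26 other mitosis genes tested, 14 fell in B6 and 9 in TH, among them Pbk (B6, -2.27 ± 0.59) and Nuf2 (TH, -2.33 ± 0.64). Of 5 erythroid markers tested, 4 fell with age in B6 and 1 in TH, and the summed erythroid level in B6 males ran from 639.9 to 1824 CPM at 5 weeks and from 330.1 to 570.3 at 20 weeks. Fibroblast markers fell in 2 of 6 genes in B6 and 3 of 6 in TH. Their sum ran from 237.8 to 336.9 CPM at 5 weeks and from 153.5 to 201.5 at 20 weeks in B6 males, and from 247.1 to 328 and then from 191.7 to 227 in TH females, with no overlap. The part of these cells in the fall was not tested.

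In gonadal fat the fall was broad in B6 and narrow in TH. In B6 all 23 mitotic genes and 6 of 12 S-phase genes fell, where 14% of all genes passed and 7.44% as lower. The largest falls were in Cenpf, a kinetochore protein (-2.54 ± 0.40), Ccnb2 (-2.29 ± 0.38) and Bub1 (-2.18 ± 0.45). In TH, 9 of 35 fell (6 mitotic and 3 S-phase), where 13.8% of all genes passed and 5.6% as lower, led by Cdc20 (-1.33 ± 0.34), Cenpf (-1.27 ± 0.39) and Prc1, which bundles microtubules of the central spindle (-1.01 ± 0.29). Summed over runs of animal numbers, 1 gene passed in TH fat in place of 9, where 8.16% of all genes passed. Mki67 in B6 males ran from 28.9 to 49.3 CPM at 5 weeks and from 6.17 to 24.5 at 20 weeks, with no overlap. In TH males it ran from 15 to 56.1 and then from 12.6 to 40.7, and these groups overlapped over most of their range. No gene of the 35 passed the test of the difference between strains by edgeR, where 0.959% of all genes passed, although its median was 0.67, 16 genes had an unadjusted p under 0.05 and DESeq2 also called 0.

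In TH fat the macrophage markers rose with age. All 9 tested passed (median 1.57), as did 7 of 7 T cell, 4 of 4 erythroid and 3 of 6 B cell markers. In B6, 2 of 9 macrophage and 5 of 6 B cell markers rose, 3 of 6 fibroblast markers fell and 1 rose, and 2 of 4 epididymis markers fell (Lcn5, -5.56 ± 1.61, and Lcn8, -5.43 ± 1.59). The summed macrophage level of TH males on chow ran from 1799 to 4535 CPM at 20 weeks and from 210.4 to 1016 at 5 weeks. The part of these cells in the fall of either strain was not tested. Foxm1 (-1.49 ± 0.25), E2f8 (-1.39 ± 0.37) and E2f2 (-0.76 ± 0.24) fell in B6 with Mybl2, the gene of B-Myb, and Mybl2 alone of this list fell in TH (-0.73 ± 0.19).

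In the soleus the mitotic genes fell steeply from low levels. In B6, 19 of 21 tested mitotic genes and 3 of 12 S-phase genes fell and 1 rose, where 41.2% of all genes passed and 22.6% as lower. The largest falls were in Ccnb1 (-3.19 ± 0.60), Mki67 (-2.90 ± 0.76) and Top2a, the topoisomerase that untangles sister chromatids (-2.81 ± 0.60). In TH, 18 mitotic and 5 S-phase genes fell and 1 rose, where 38.4% of all genes passed and 22.2% as lower, led by Ccnb1 (-3.09 ± 0.68), Aurkb (-2.95 ± 0.64) and Ccna2 (-2.73 ± 0.54). The gene that rose in both strains was Cdc45, part of the active helicase (0.54 ± 0.12 in B6 and 0.34 ± 0.13 in TH). B6 males had 2.71 ± 0.34 CPM of Cdc45 at 5 weeks and 3.79 ± 0.79 at 20 weeks (SD, n = 6 each), and TH males 2.72 ± 0.48 (n = 5) and 3.96 ± 0.70 (n = 6).

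Mki67 was near 1 CPM in the soleus already at 5 weeks. B6 males on chow had 0.567 to 3.63 CPM at 5 weeks and 0.00 to 0.912 at 20 weeks, and all 4 pairs of chow groups overlapped. Cdkn1c, an inhibitor of cyclin-dependent kinases that is high in growing tissue, fell alongside (-2.13 ± 0.18 in B6 and -2.46 ± 0.18 in TH), and Ccnd2 (-1.36 ± 0.23), Ccnd1 (-1.09 ± 0.22) and Cdk6 (-0.94 ± 0.22) fell in B6. The licensing list went both ways in B6, with 6 genes higher and 6 lower of 20 tested. Gmnn, the inhibitor of licensing, rose by 1.41 ± 0.15, and Uhrf1, which keeps DNA methylation through replication, fell (-2.03 ± 0.27). Fibroblast markers fell with age in 3 of 6 genes and endothelial markers in 3 of 5 in each strain, and erythroid markers rose in 4 of 5 in TH. The part of these cells in the fall was not tested.

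In the pancreas of TH all 33 tested genes fell, 22 mitotic and 11 S-phase, with a median of -2.63, where 27.5% of all genes passed and 13.6% as lower. The largest falls were in Ccnb1 (-4.75 ± 0.57), Birc5, the survivin subunit of the Aurora B complex (-4.42 ± 0.49), and Cenpf (-4.18 ± 0.41). In B6, 18 of 22 mitotic and 5 of 11 S-phase genes fell, where 14.6% of all genes passed and 7.03% as lower. Here the largest falls were in Tpx2, the spindle factor that activates Aurora A (-3.52 ± 0.54), Ccna2 (-3.31 ± 0.52) and Cdc20 (-2.43 ± 0.50).

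Mki67 in TH females on chow ran from 11.3 to 40 CPM at 5 weeks (median 17.1, n = 7) and from 0.00 to 4.05 at 20 weeks (median 0.635, n = 8). TH males had 6.83 to 34.5 (median 22.2, n = 6) and then 0.439 to 3.62 (median 1.92, n = 10). B6 males had 10.1 to 17.4 (median 15.7, n = 6) and then 0.584 to 2.68 (median 1.32, n = 6). In these 3 pairs the ages did not overlap. B6 females had 4.13 to 25.3 (median 6.25, n = 6) and then 0.804 to 5.71 (median 2.70, n = 9), and the ages overlapped. Mki67 fell by 3.80 ± 0.32 in TH (adjusted p = 2.46e-19, edgeR) and by 2.40 ± 0.32 in B6 (adjusted p = 2.93e-09).

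Of the other cell-cycle genes of the pancreas, all 25 tested genes of the other mitosis list fell in TH, led by Melk (-4.75 ± 0.62), Pbk (-4.19 ± 0.51) and Hmmr (-4.10 ± 0.47), and 18 of 25 fell in B6. Of 16 licensing and replication genes, 15 fell in TH and 6 in B6, led in both by Pole, the leading-strand polymerase (-3.07 ± 0.39 in TH and -2.23 ± 0.51 in B6). E2f8 (-3.86 ± 0.55) and Foxm1 (-2.76 ± 0.36) fell in TH, and Rbl2, a pocket protein of resting cells, and the G1 cyclin Ccnd3 rose (0.29 ± 0.09 and 0.23 ± 0.08). Fibroblast markers fell with age in 5 of 6 genes in TH and 4 of 6 in B6, erythroid markers in 4 of 4 in each, endothelial markers in 3 of 5 in TH and 4 of 5 in B6, and macrophage markers in 4 of 5 and 2 of 5. Acinar enzyme genes rose in 5 of 5 in TH (median 0.48) and 1 of 5 in B6. The part of these cells in the fall was not tested.

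The fall differed between strains in the pancreas for 5 of 33 genes, where 4.53% of all genes passed. It was steeper in TH for Cenpf (difference -2.65 ± 0.73), Bub1b (-1.83 ± 0.58), Mcm6 (-1.65 ± 0.44), Pcna (-0.78 ± 0.19) and Mcm2 (-0.76, adjusted p = 0.0321). In liver and soleus the same test called 0 genes by edgeR and by DESeq2, with 1 and 3 genes at an unadjusted p under 0.05, where 1.44% and 3.07% of all genes passed. Without 1 TH female of the 5-week chow group (replicate 4) the pancreas count was 3. When libraries were summed over runs of consecutive animal numbers, as described below, it was 0, where 0.105% of all genes passed. The median difference went from -0.87 to -0.89.

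**Figure D2:**
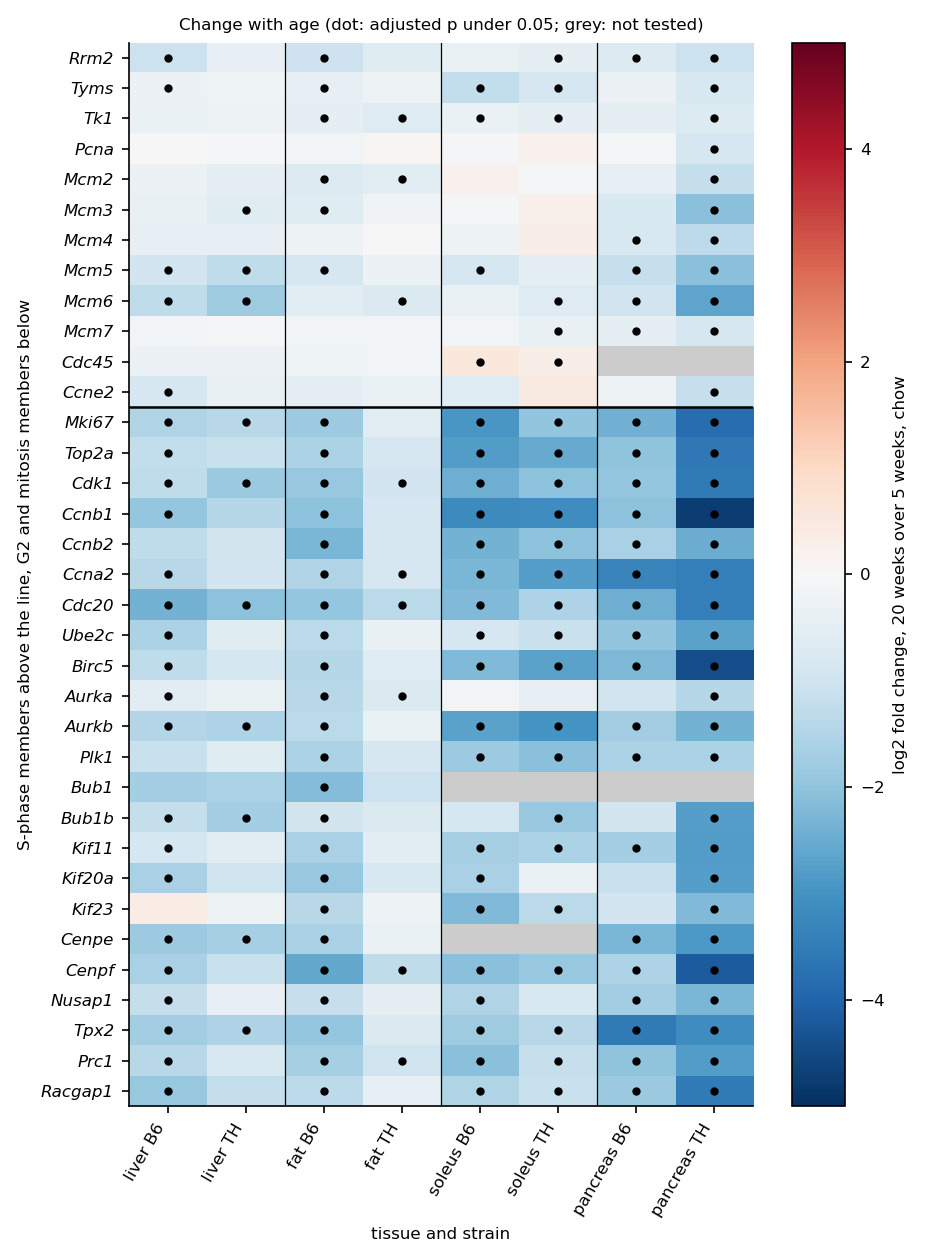
Log2 fold change from 5 to 20 weeks on chow for the 35 genes (rows, S phase above the line) in 4 tissues and 2 strains (columns). Red is higher and blue lower at 20 weeks, a dot marks an adjusted p under 0.05 and grey a gene that was not tested, and the TH pancreas column holds 33 dots.

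S-phase and mitotic genes separated in every tissue. The median log2 change with age on chow was -0.34 for S-phase and -1.40 for mitotic genes in B6 liver, and -0.39 and -1.09 in TH liver. In fat the pairs were -0.46 and -1.63 in B6 and -0.28 and -0.74 in TH. In soleus they were -0.29 and -2.08 in B6 and -0.20 and -1.88 in TH, and in pancreas -0.49 and -1.88 in B6 and -1.15 and -2.83 in TH. Median changes over all genes lay between -0.05 and 0.01 in these 8 comparisons.

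The same held when CPM were summed over each class and group means compared. The summed S-phase level at 5 weeks was 0.959 to 2.43 times that at 20 weeks over the 16 combinations of tissue, strain and sex, and the mitotic sum was 1.28 to 10.2 times. The mitotic ratio was the larger in 16 of 16. TH female pancreas had the highest mitotic ratio, with 71.3 ± 26.0 CPM at 5 weeks (SD, n = 7) and 7.01 ± 3.03 at 20 weeks (n = 8), and its S-phase sum went from 47.2 ± 10.4 to 21.5 ± 4.20. TH male fat had the lowest in both classes, with mitotic sums of 159.1 ± 71.3 and 124.6 ± 43 and S-phase sums of 163.0 ± 28.4 and 170.0 ± 25.7 (n = 6 each). The S-phase sum was held up by genes with high levels in resting tissue, Tk1 in liver (21.4 to 42.2 CPM as group means on chow at 20 weeks in B6) and Pcna, whose 5-week and 20-week group means ran from 16.0 to 20.2 and from 16.5 to 20.2 CPM in liver. No test of the difference between classes was run, since the genes of a class are not independent.

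On high-fat, the group means of Mki67 did not all fall with age. In liver they went from 5 to 20 weeks from 8.89 to 9.68 CPM in B6 females, from 15.7 to 7.57 in TH females, from 20.4 to 4.79 in B6 males and from 3.28 to 17 in TH males. In fat they went from 33.7 to 21.1 CPM in B6 females, from 71.2 to 16.8 in TH females, from 49.1 to 20.2 in B6 males and from 20.5 to 61.4 in TH males. TH males were thus higher at 20 than at 5 weeks as group means in both tissues, and no test of age on high-fat was run. In pancreas all 4 means were lower at 20 weeks, at 0.823 to 3.75 CPM against 19.8 to 23.9. In soleus they were 0.636 to 3.39 CPM at 5 weeks and 0.0898 to 0.6 at 20 weeks.

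**Figure D3:**
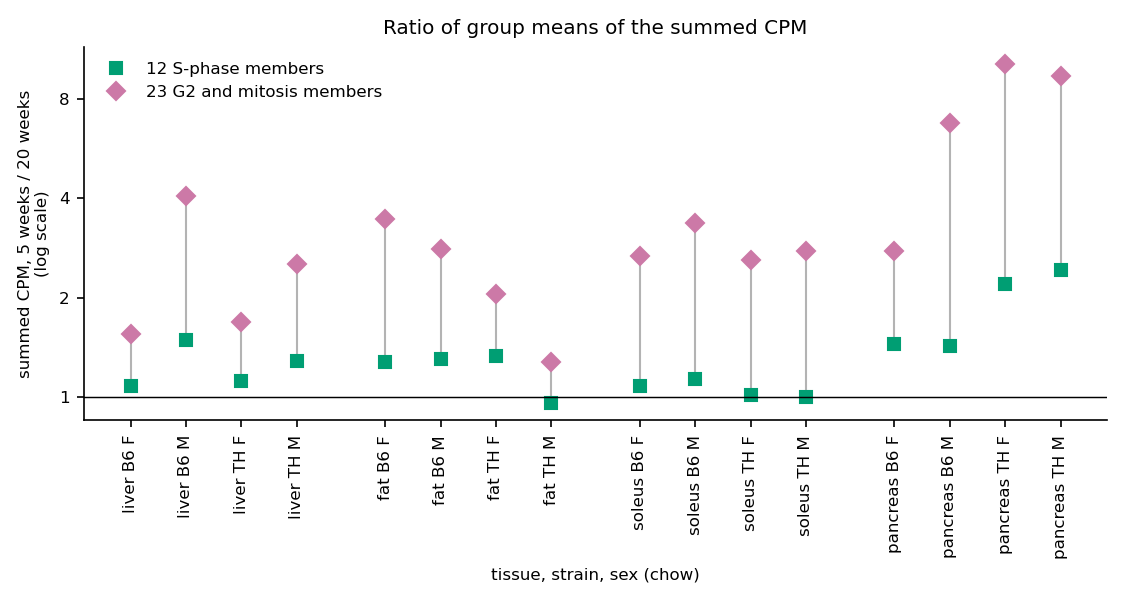
Ratio of the summed CPM at 5 weeks to that at 20 weeks on chow, as ratios of group means on a log axis, for each tissue, strain and sex. Green squares are the 12 S-phase genes and pink diamonds the 23 mitotic genes. The squares lie between 0.959 and 2.43 and the diamonds between 1.28 and 10.2, above the square in each of the 16 pairs.

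Other index genes followed their class only in part. Over the 8 groups of each age, the group means of Cdc20 in liver ran from 0.679 to 4.25 CPM at 5 weeks and from 0.348 to 2.95 at 20 weeks, with the highest 20-week mean in TH males on high-fat. Top2a in liver ran from 1.41 to 6.58 CPM and then from 1.16 to 5.04, and Cdk1 from 1.28 to 3.84 and then from 0.536 to 2.66, with the highest 20-week means in that group too. In pancreas Top2a ran from 4.04 to 9.71 CPM at 5 weeks and from 0.6 to 1.77 at 20 weeks, and Cdk1 from 1.29 to 3.77 and from 0.109 to 0.646, so that the ages were apart as group means. Cdc20 in pancreas did the same (0.908 to 3.10 and 0.0576 to 0.361 CPM). In soleus Top2a ran from 0.735 to 3.19 and from 0.167 to 0.776 CPM, Cdk1 from 1.13 to 4.40 and from 0.375 to 1.10, and Cdc20 from 1.01 to 3.86 and from 0.363 to 1.68. In fat the ages overlapped for Top2a (13.2 to 59.1 and 8.35 to 30.7 CPM), Cdk1 (5.71 to 19.7 and 2.43 to 8.73) and Cdc20 (3.19 to 11.9 and 1.53 to 4.62). Of the S-phase index genes, Mcm5 in soleus ran from 2.02 to 4.25 and from 1.78 to 3.85 CPM, in liver from 2.06 to 6.25 and from 1.45 to 3.56, and in fat from 9.19 to 19.2 and from 5.46 to 18. Rrm2 ran from 2.00 to 8.15 and from 1.65 to 5.43 CPM in liver, from 4.96 to 14.5 and from 2.90 to 10.2 in fat, and from 3.06 to 5.06 and from 1.97 to 3.08 in soleus. Pcna overlapped in every tissue, with 31.7 to 46.6 and 31.9 to 59.9 CPM in fat, 16.4 to 24.2 and 12.6 to 24.9 in soleus, and 5.09 to 8.81 and 3.59 to 7.02 in pancreas. In pancreas Mcm5 and Rrm2 were apart between ages, as the mitotic index genes were. Mcm5 had 2.30 to 4.28 and 0.200 to 1.47 CPM and Rrm2 3.93 to 5.86 and 1.71 to 3.42.

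At 5 weeks on chow the strains differed in the pancreas. There 16 of 33 genes were higher in TH and 1 was lower, where 26% of all genes passed, and the median over the 33 was 0.60 against 0.01 over all genes. The largest differences were in Cenpf (1.55 ± 0.29), Prc1 (1.11 ± 0.26) and Ccnb1 (1.06 ± 0.33), and the gene that was lower was Tk1 (-0.55 ± 0.18). Cenpf stood at 2.31 ± 1.4 CPM in TH females (SD, n = 7) and 2.84 ± 1.5 in TH males (n = 6), against 0.661 ± 0.54 and 1.03 ± 0.71 in B6 (n = 6 each). Mki67 was 0.83 ± 0.24 higher (adjusted p = 0.00399, edgeR), although the male groups overlapped in full, since the TH males ran from 6.83 to 34.5 and the B6 males from 10.1 to 17.4 CPM. Of the S-phase genes, Mcm3 (0.89 ± 0.25), Pcna (0.48 ± 0.14) and Mcm7 (0.40 ± 0.15) were higher, and the difference in Rrm2 was 0.03 ± 0.18 (adjusted p = 0.931).

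Other cell-cycle genes also differed in young TH pancreas. Of 25 other mitosis genes, 8 were higher and 1 lower, with Kif2c (1.70 ± 0.42), Hmmr (1.27 ± 0.33) and Mad2l1 (1.03 ± 0.29) highest in difference and Pttg1, securin, lower (-1.66 ± 0.26). Foxm1 (0.83 ± 0.28), E2f8 (1.04 ± 0.38) and the CDK inhibitor Cdkn1a (1.14 ± 0.22) were higher too, while Ccnd1 was lower (-0.89 ± 0.13) and Ccnd2 higher (0.62 ± 0.10). Some of these differences were not limited to this age or tissue. Pttg1 was lower in TH pancreas at 20 weeks too (-3.14 on chow and -3.06 on high-fat), and in fat on chow at 5 weeks (-3.00). Ccnd1 was lower in pancreas at 20 weeks (-0.66 on chow and -0.99 on high-fat). Cdkn1a (1.47) and Ccnd2 (0.35) were higher there on high-fat. Kif2c, Hmmr, Mad2l1, Foxm1 and E2f8 were not called between strains in pancreas at 20 weeks. Of the cell type markers at 5 weeks, 1 of 6 fibroblast genes was higher and 2 of 5 endothelial genes were lower. The count of 17 ran from 13 to 19 when single libraries were left out. It was 6 when libraries were summed over runs of animal numbers, where 12.2% of all genes passed.

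At 20 weeks fewer of the genes differed in pancreas. On chow 3 genes were lower in TH, Mcm6 (-1.76 ± 0.36), Bub1b (-1.47 ± 0.49) and Tk1 (-0.79 ± 0.21), where 27.1% of all genes passed. On high-fat Prc1 (1.53 ± 0.54) and Pcna (0.51 ± 0.16) were higher, where 18.7% passed.

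Mcm6 and Bub1b, a subunit of the MCM ring and a checkpoint kinase, were lower in TH in several tissues and at both ages. In soleus Mcm6 ran from 8.97 to 17.6 CPM in B6 females and 8.56 to 12.8 in B6 males on chow at 5 weeks, against 1.41 to 3.44 and 0.966 to 3.75 in TH, so that the strains did not overlap. The difference was -2.40 ± 0.17 (adjusted p = 2.17e-21, edgeR) at 5 weeks and -2.71 on chow and -2.94 on high-fat at 20 weeks. In liver it was -1.86 ± 0.28 at 5 weeks, -2.38 ± 0.36 on chow and -1.83 on high-fat at 20 weeks, and in fat -0.90 ± 0.22, -1.06 and -0.88 ± 0.22. In pancreas Mcm6 was not called at 5 weeks, and was lower on chow at 20 weeks. The difference in Bub1b was -2.20 ± 0.45 in soleus at 5 weeks and -3.20 ± 0.52 on chow at 20 weeks, -1.08 ± 0.30 and -1.59 ± 0.42 in liver, and -1.51 ± 0.28 and -1.32 ± 0.29 in fat. Of the other 5 subunits of the MCM ring, Mcm2 was lower in TH soleus too (-0.72 ± 0.17 at 5 weeks and -1.0 ± 0.16 on chow at 20 weeks), and Mcm4 was higher there on chow at 20 weeks (0.94 ± 0.19). Sequence differences between the strains can change how many reads of a gene are mapped, and their part here was not tested.

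The remaining strain differences are read against the background of each comparison. In liver at 5 weeks 7 of 35 genes were lower in TH and none higher, where 38.8% of all genes passed, with Rrm2 (-1.20 ± 0.22) among them. At 20 weeks on chow 4 were lower, the third being Kif23 (-0.82 ± 0.34), where 42.2% passed. On high-fat Ube2c (1.43) and Prc1 (1.16) were higher and Mcm6, Rrm2 (-0.72 ± 0.22) and Tk1 (-0.55) lower, where 39.6% passed. In fat at 5 weeks 4 genes were lower, where 21.3% of all genes passed, with Kif11, a spindle kinesin (-0.81 ± 0.29), the third. At 20 weeks on chow 8 were higher, led by Ube2c (1.24), Aurkb (0.92) and Cdk1 (0.79 ± 0.25), and 2 were lower, where 25.6% passed. On high-fat 7 were higher, led by Ube2c (1.01 ± 0.25), Cdk1 (0.80 ± 0.25) and Racgap1 (0.63 ± 0.21), and Mcm6 was lower, where 26.1% passed. In soleus 4 were lower at 5 weeks (16.6% of all genes), Kif20a (-0.91 ± 0.31) and Mcm2 besides Mcm6 and Bub1b. At 20 weeks on chow 3 were higher (Ccne2 by 1.81, Prc1 by 1.76 and Mcm4) and 4 lower, where 48.8% passed. On high-fat 7 were higher, led by Mki67 (2.01 ± 0.86), Prc1 (1.59) and Cdk1 (1.28 ± 0.47), and 5 lower, with Bub1b (-1.93) and Pcna (-0.42 ± 0.10) after Mcm6, where 51.4% passed.

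After 16 weeks of high-fat feeding the mitotic genes were higher in the liver of TH males. In TH liver over both sexes 15 of 35 genes were higher on high-fat and 1 lower, where 26.1% of all genes passed. The largest rises were in Cenpe, the kinesin that aligns chromosomes (1.89 ± 0.54), Ccnb1 (1.85 ± 0.65) and Cdc20 (1.79 ± 0.56), and Tk1 was lower (-1.16 ± 0.17). In males alone 19 were higher and 1 lower, where 19.8% passed, with a median of 1.53 and the largest rises in Cenpe (3.03 ± 0.77), Cdc20 (2.98 ± 0.80) and Tpx2 (2.91 ± 0.70). In females alone Tk1 was the 1 gene called (-1.06), where 12.9% passed, and the median was 0.16.

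Mki67 in TH males ran from 0.703 to 6.39 CPM on chow (median 2.50) and from 4.80 to 34 on high-fat (median 15.1), and the groups overlapped only between 4.80 and 6.39. In TH females it ran from 2.58 to 8.69 on chow (median 3.23) and from 2.07 to 18.4 on high-fat (median 4.15), and these groups overlapped in full. The rise in males was 2.64 ± 0.64 (adjusted p = 0.00131, edgeR), and the females' difference was 0.86 ± 0.56 (adjusted p = 0.355). The difference between the sexes was 1.78 ± 0.86 and did not pass (adjusted p = 0.247). Ccna2, the cyclin of S phase and mitotic entry, was the 1 gene for which the diet effect differed by sex (2.41 ± 0.75), where 4.19% of all genes passed. It no longer passed with the replicate block, over runs of animal numbers or with no filter on low counts. Its level in males was 0.563 ± 0.21 CPM on chow and 2.98 ± 1.9 on high-fat, and in females 0.871 ± 0.42 and 0.870 ± 0.45 (SD, n = 6 each).

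The class difference of the age comparison was seen here too. In males the mitotic sum went from 17.4 ± 7.00 to 67.8 ± 41.5 CPM and the S-phase sum from 66.8 ± 6.21 to 72.2 ± 9.53 (n = 6 each). Mcm3 (0.92 ± 0.25), Mcm4 (0.83 ± 0.23), Mcm6 (1.86 ± 0.62) and Rrm2 (1.21 ± 0.37) rose in males, while Tk1 fell by 1.27 ± 0.25, from 15.8 ± 4.3 to 6.49 ± 1.3 CPM. Of 26 other mitosis genes 16 rose in males, led by Nuf2 (3.65 ± 0.99), Hmmr (3.43 ± 0.96) and Ckap2 (2.94 ± 0.77). Ccnd1, the growth-factor-driven G1 cyclin (1.28 ± 0.38), Foxm1 (1.31 ± 0.48) and Gins2 (2.13 ± 0.56) rose with them, and Mcm10 fell (-0.94 ± 0.23).

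Markers of other liver cells moved in the same animals. All 6 fibroblast markers and 9 of 10 macrophage markers rose in TH males on high-fat, and 3 of 5 endothelial markers. The summed fibroblast level ran from 53.9 to 260.3 CPM on chow and from 274.9 to 594.6 on high-fat, and the macrophage sum from 53.6 to 228.9 and from 215.1 to 305.2, and their part in the mitotic rise was not tested. When libraries were summed over runs of animal numbers, 2 of 35 genes passed in males in place of 20, 1 higher and 1 lower. On these sums 5.69% of all genes passed, and the median over the 35 was 1.34. Leaving out 1 library gave 10 to 17 in both sexes together (10 without replicate 3 of the TH females on high-fat).

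In B6 liver the diet raised Rrm2 (0.88 ± 0.23) and Ccne2 (0.75), a cyclin of the entry into S phase, and lowered Tk1 (-0.89), where 23.4% of all genes passed. Mki67 was at 2.66 ± 0.56 CPM on chow and 4.79 ± 1.6 on high-fat in B6 males and at 5.10 ± 3.0 and 9.68 ± 6.7 in B6 females (SD, n = 6 each), a difference of 0.88 ± 0.44 that did not pass (adjusted p = 0.148). The diet effects of the strains were not told apart by the test, since 0 of 35 genes passed the test of their difference by edgeR and 0 by DESeq2, with 2 at an unadjusted p under 0.05, where 3.89% of all genes passed.

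**Figure D4:**
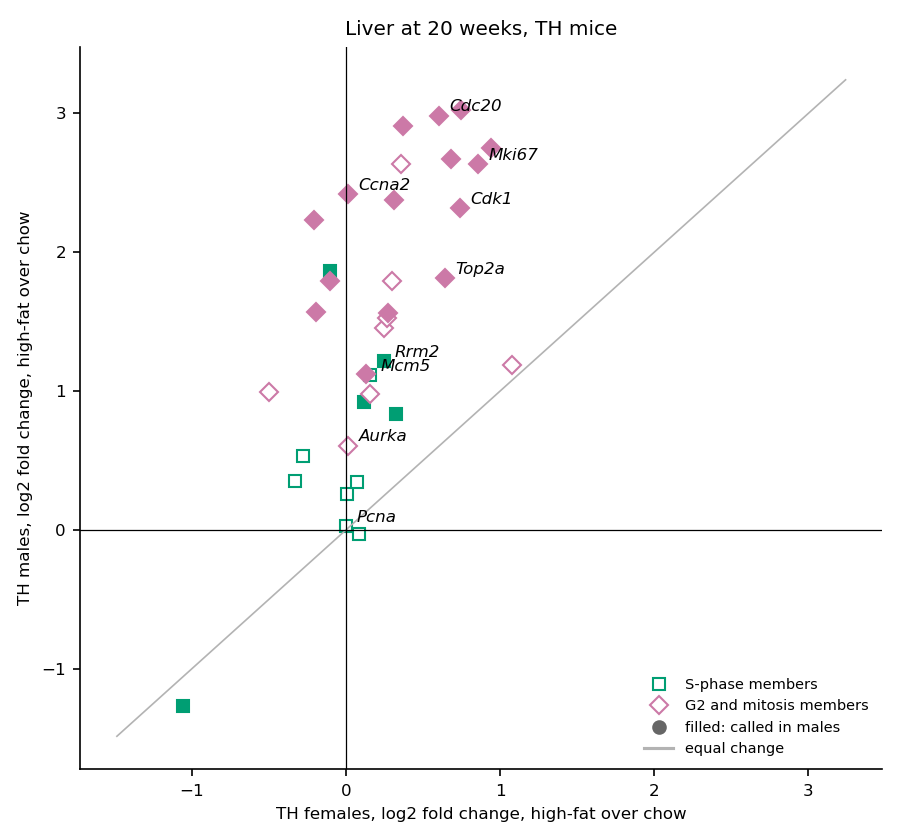
Log2 fold change of the 35 genes on high-fat over chow in TH liver at 20 weeks, females on the horizontal and males on the vertical axis. Green squares are S-phase and pink diamonds mitotic genes, filled where the males' change passed the test, and the grey line marks equal changes. Most diamonds lie above the line, with a median over all 35 genes of 1.53 in males and 0.16 in females.

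In the other tissues the 16-week diet moved fewer of the genes. In fat none passed in either strain by edgeR or DESeq2, where 2.34% of all genes passed in B6 and 0.152% in TH, with 8 and 4 genes at an unadjusted p under 0.05. TH males nevertheless had the highest Mki67 of the 20-week fat groups, at 61.4 ± 36 CPM on high-fat against 25.1 ± 11 on chow, a difference of 1.29 ± 0.50 (adjusted p = 0.129). In TH males alone none of the 35 passed by edgeR or DESeq2 in fat, where 2.56% of all genes passed, with 22 at an unadjusted p under 0.05. In TH soleus 6 of 33 were higher and 2 lower, a share below the 67.7% of all genes that passed. Cdc20 (1.13 ± 0.40), Cdk1 (0.99 ± 0.46) and Mcm5 (0.81 ± 0.29) rose most, and Mcm4 (-0.91) and Pcna (-0.47 ± 0.10) fell. In TH males alone 4 rose and 2 fell, where 63.2% of all genes passed, with Cdc20 (1.21 ± 0.53) and Tyms (1.04 ± 0.27) the most raised. In B6 soleus none passed by edgeR or DESeq2, with 1 at an unadjusted p under 0.05, where 0.114% of all genes passed. The diet effect differed between strains in soleus for 8 genes, where 63.4% of all genes passed.

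In pancreas none passed in B6 by edgeR and 1 by DESeq2, and none in TH by either, where 1.58% and 5.74% of all genes passed, with 4 genes at an unadjusted p under 0.05 in each strain. In TH male pancreas 7 genes rose on high-fat at 20 weeks, where 11.1% of all genes passed, with Racgap1 (2.11 ± 0.61), Kif20a (1.93 ± 0.67) and Top2a (1.93 ± 0.49) the most raised. The count was 1 over runs of animal numbers, where 2.11% of all genes passed, and 2 with the replicate block. Beside it 2 of 6 fibroblast markers (Lum, 0.81 ± 0.20, and Col3a1, 0.46 ± 0.15) and 1 of 5 macrophage markers (Adgre1, 0.94 ± 0.31) rose, and Krt19 of the duct markers (-0.94 ± 0.21) and Alas2 of the erythroid markers (-2.01 ± 0.68) fell, and their part was not tested. Mki67 ran from 0.439 to 3.62 CPM on chow (n = 10) and from 1.02 to 8.61 on high-fat (n = 7), with overlap. The diet effect on Mcm5 differed between TH sexes (4.05 ± 1.03), where 0.845% of all genes passed. Its level in TH females ran from 0.358 to 2.83 CPM on chow and from 0.00 to 0.910 on high-fat, on few reads. In TH males it ran from 0.230 to 1.55 and from 0.00 to 3.24 CPM, with overlap. The myofibre markers Acta1, Ckm and Myh7 rose in these females (6.45, 4.14 and 6.67), and their part was not tested. The diet effect on Pcna differed between strains (0.81 ± 0.21), where 1.33% passed.

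After 1 week of high-fat feeding, mitotic genes were higher in the pancreas over both strains and sexes, with the larger differences of group means in B6. Of 22 mitotic genes 15 rose and of 11 S-phase genes none, where 6.03% of all genes passed and 2.59% as higher. The largest rises were in Plk1 (0.98 ± 0.22), Tpx2 (0.95 ± 0.17) and Ube2c (0.89 ± 0.20). Tpx2 was at 1.02 ± 0.65 CPM on chow and 2.75 ± 1.3 on high-fat in B6 females, and at 1.51 ± 0.48 and 3.12 ± 0.90 in B6 males. In TH it was at 2.62 ± 1.3 and 3.71 ± 1.3 in females and at 2.40 ± 1.6 and 3.13 ± 1.8 in males, with SDs larger than these differences. The mitotic sum was 31.7 ± 20.4 CPM on chow and 69.1 ± 40.6 on high-fat in B6 females and 43 ± 7.25 and 69.1 ± 13.9 in B6 males. In TH it was 71.3 ± 26.0 and 85.9 ± 18.2 in females and 69.9 ± 40.9 and 68.3 ± 32 in males, with overlap. In TH females alone 1 gene passed, Mcm2, which was lower (-0.78 ± 0.20), where 2% of all genes passed. None passed over runs of animal numbers, where 0% of all genes passed. In TH males alone none passed by edgeR or DESeq2, where 0.875% passed, with 3 at an unadjusted p under 0.05. The diet effects of the strains at 5 weeks were not compared by a test. Of 25 other mitosis genes 11 rose, led by Kif4 (0.89 ± 0.22), Ckap2 (0.84 ± 0.21) and Cdca3 (0.84 ± 0.17). Acinar enzyme genes fell in 5 of 5 (median -0.38) and erythroid markers in 4 of 4, and their part in the rise was not tested. The count of 15 was 9 by DESeq2, and 2 when libraries were summed over runs of animal numbers, where 0.83% of all genes passed.

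In liver the 1-week diet lowered Tk1 (-0.54) and moved no other of the 35 genes, where 23.1% of all genes passed. In fat and soleus none passed by edgeR or DESeq2, with 0 and 3 at an unadjusted p under 0.05, where 0.0609% and 2.07% of all genes passed. In TH fat none passed by edgeR in females (0.0609% of all genes) or males (0.00507%) or in the difference between the sexes (0%), with 28, 2 and 29 at an unadjusted p under 0.05 and 1, 0 and 1 by DESeq2. The median difference was 0.94 in TH females and -0.40 in TH males. In TH liver the sexes differed in this response for Cenpf (-4.06 ± 1.04) and Bub1b (-2.64 ± 0.73), where 2.12% of all genes passed. Cenpf was at 1.05 ± 0.85 CPM on chow and 3.00 ± 1.8 on high-fat in females, and at 1.54 ± 1.6 and 0.274 ± 0.19 in males (SD, n = 6 each).

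Between the sexes on chow few genes differed. In liver at 20 weeks Ube2c (-1.33 ± 0.50), Racgap1 (-1.32 ± 0.52) and Tk1 (-1.14 ± 0.16) were lower in males, where 44.5% of all genes passed. Pcna was lower in male soleus at both ages (-0.32 ± 0.11 at 5 weeks and -0.40 ± 0.10 at 20 weeks), where 8.98% and 1.71% of all genes passed. Cdc45 was higher in male fat at 20 weeks (0.70), where 14.6% passed. At 5 weeks none passed by edgeR or DESeq2 in liver or fat, where 18% and 29.1% of all genes passed, with 3 and 4 at an unadjusted p under 0.05. In pancreas none passed by either tool at 5 or 20 weeks, where 0.456% and 0.711% passed, with 2 and 1 at an unadjusted p under 0.05.

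In some groups, animals with neighbouring numbers had like values. The labels give each library an animal number, and numbers of a group fall into runs of consecutive integers, 38 over all liver groups, 42 in fat, 39 in soleus and 43 in pancreas. The following examples were chosen after their values were seen. In the liver of TH males on chow at 5 weeks, 1 run of 2 animals had 24.05 and 26.72 CPM of Mki67, and the 4 others 1.467 to 4.269. In pancreas, 1 run of TH males on chow had 30.24 to 34.52 CPM and the other 6.828 to 14.11. B6 females on high-fat had 18.43 to 37.84 CPM in 1 run and 7.369 to 10.02 in the other, and on chow 11.60 to 25.28 and 4.131 to 6.878. In other groups, such as B6 males on chow in liver, the runs overlapped. What a run stands for (a litter, a cage or a day) is not in the labels, so p-values over libraries may be too small. Nothing in the labels beyond the numbers says that libraries are separate animals, and the p-values measure the spread between these samples.

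Summing the libraries of each run into 1 unit left the medians close and removed many calls. In B6 liver the age count went from 24 to 0 with medians of -1.24 and -1.29, and the share of all genes called went from 15.6% to 2.86%. In TH liver it went from 10 to 1, in TH fat from 9 to 1 and in TH soleus from 24 to 13. In B6 fat it went from 29 to 24, in B6 soleus from 23 to 22, in B6 pancreas from 23 to 18, and in TH pancreas it was 33 of 33 both times. In pancreas, soleus and B6 fat at least 13 genes passed on either unit, and in liver and TH fat at most 1 passed on the summed unit.

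**Figure D5:**
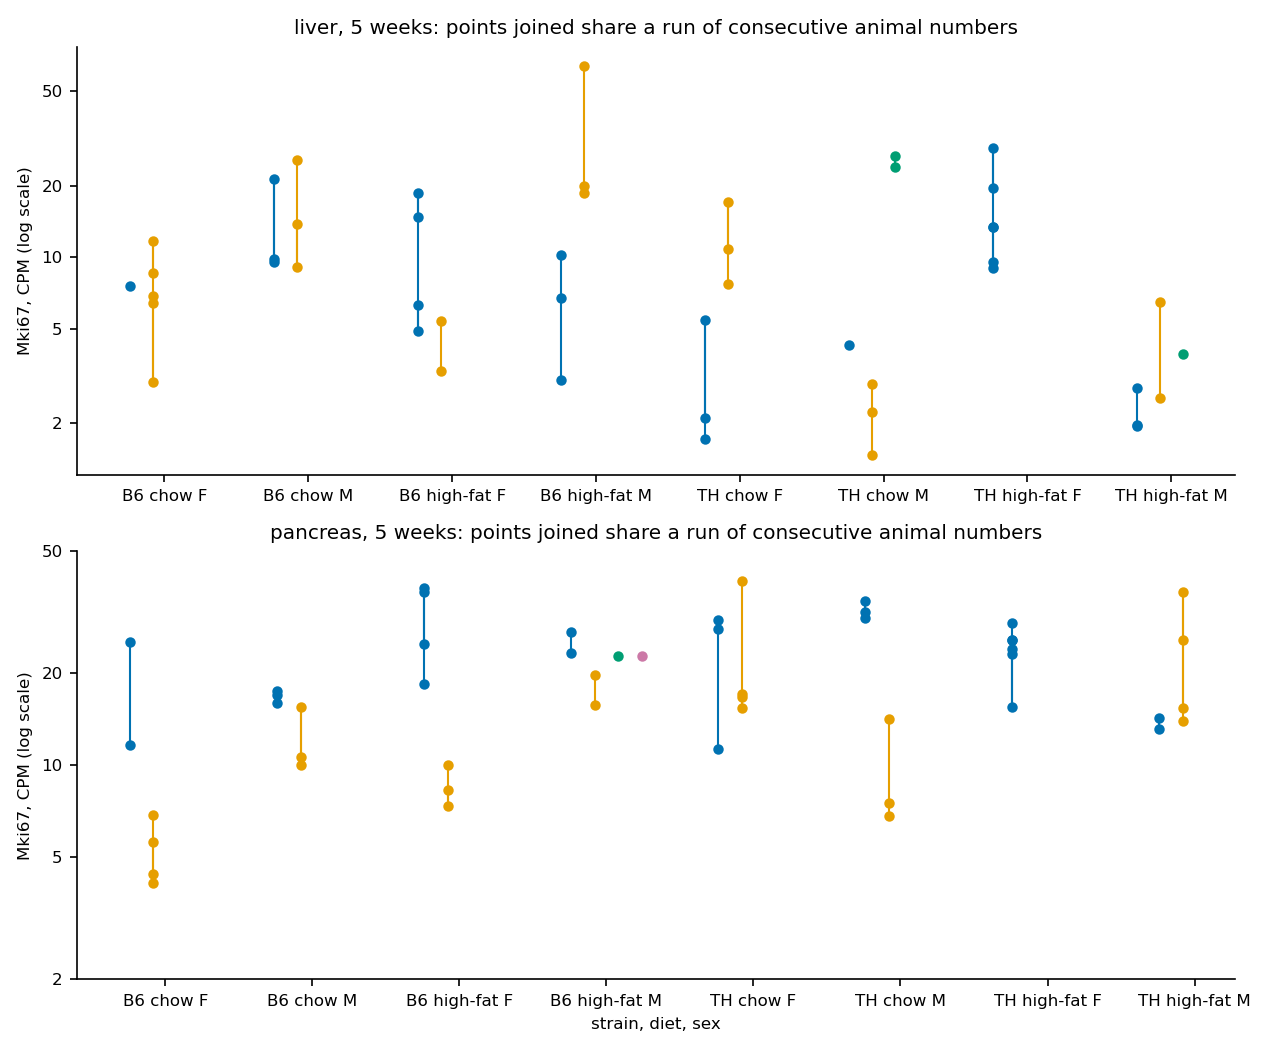
Mki67 in CPM (log axis) at 5 weeks in liver (top) and pancreas (bottom), by strain, diet and sex. Each point is 1 library, and points of one colour joined by a line within a group have consecutive animal numbers. TH males on chow split in liver into 24.05 to 26.72 and 1.467 to 4.269, and in pancreas into 30.24 to 34.52 and 6.828 to 14.11.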

How the data were processed

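Poly(A) RNA was sequenced with a stranded kit, per the labels' protocols. The authors deposited read counts per gene, per the labels and file headers, and FPKM values, a unit of counts scaled to library size and transcript length. Such scaling would keep the order of tissues for a gene as in CPM, which was not so for Mki67. How the deposited FPKM were scaled was not tested. Reads were trimmed with Trimmomatic 0.39 and aligned with HISAT2 2.2.1, with build GRCm39, DESeq, DESeq2 and SAMtools also named, per the submitters' processing notes. A counter, its strand setting or a set of gene models was not given in the sources used here.

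Counts were fitted per tissue with edgeR 4.0.16 (R 4.3.3; quasi-likelihood test, TMM scaling, filterByExpr with a minimum count of 10 and total of 15, 1 mean per group, sexes averaged), with 12 planned and 6 added comparisons per tissue and Benjamini-Hochberg adjustment over all tested genes. CPM are TMM-scaled, and FPKM were used only for levels between genes and tissues. The 35 genes and all lists were chosen with earlier results of these data known, and so support nothing by themselves. Named genes are the 3 highest and 3 lowest that passed in each comparison, and 7 index genes. Of these, Mki67 is plotted for every library, and the others are given as ranges of group means. Alternatives were RLE scaling, no filter on low counts, DESeq2 1.42.0, only the groups compared, a replicate block, leaving out libraries, and, chosen after seeing the data, sums over runs of animal numbers. The fit was tested on simulated data. Replicate numbers did not pair the libraries. RefSeq promoter windows are of GRCm38.p6 and were joined by gene symbol, with no coordinate carried between builds.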

Additional observations from a re-analysis of the deposited data

Results flagged for a closer look

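Mki67 of 1 library lay far from the rest of its group in 11 of 64 groups. For normally distributed values the rule would single out about 1 group in 20. CPM that rest on few reads are skewed, so this rate need not hold here, and it was not tested. In liver these were a TH female on chow at 20 weeks with 8.69 CPM (nearest library 4.65) and a B6 male on high-fat at 5 weeks with 63.7 CPM (nearest 20.0). In pancreas it was a B6 female on chow at 5 weeks with 25.3 CPM (nearest 11.6). The other 8 groups were in soleus, where counts are lowest. At 5 weeks they were a B6 female on chow with 5.22 CPM (nearest 1.72), a TH female on high-fat with 12.9 (nearest 3.16) and a B6 male on chow with 3.63 (nearest 1.53). At 20 weeks on chow they were a B6 female with 0.366 CPM (nearest 0.110), a TH female with 0.959 (nearest 0.274), a B6 male with 0.912 (nearest 0.306) and a TH male with 1.18 (nearest 0.225). On high-fat at 20 weeks it was a TH male with 2.28 CPM (nearest 0.468).

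Some effects differed between strains or sexes by the interaction term in edgeR, each given as a log2 difference with its adjusted p. In TH liver the 1-week diet effect was lower in males than in females for Cenpf (-4.06, adjusted p = 0.019) and Bub1b (-2.64, adjusted p = 0.0328), and the 16-week effect was higher in males for Ccna2 (2.41, adjusted p = 0.0466). In TH pancreas the 16-week effect was higher in males for Mcm5 (4.05, adjusted p = 0.0271). The mean of the females on high-fat was 0.200 CPM there, near the floor. The 16-week diet effect was higher in TH than in B6 for Pcna in pancreas (0.81, adjusted p = 0.0328). In soleus it was higher in TH for Mcm2 (0.60, adjusted p = 0.0181), Mcm5 (0.96, adjusted p = 0.0354), Tyms (0.95, adjusted p = 0.00255), Aurka (0.77, adjusted p = 0.0293) and Mcm7 (0.38, adjusted p = 0.027). It was lower in TH soleus for Mcm4 (-1.07, adjusted p = 0.000767), Pcna (-0.57, adjusted p = 0.000903) and Ccne2 (-1.83, adjusted p = 0.0154). The fall with age in pancreas was steeper in TH for Mcm2 (-0.76, adjusted p = 0.0321), Mcm6 (-1.65, adjusted p = 0.0138), Cenpf (-2.65, adjusted p = 0.0171), Pcna (-0.78, adjusted p = 0.00763) and Bub1b (-1.83, adjusted p = 0.0465).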

How the results depend on the processing

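Of 599 alternative counts of called genes for 72 results, 521 stayed within 1.5 times the main count and 78 did not. Alternatives for index genes were run for the 94 results that passed in the main fit. Of these 929 alternatives none changed direction and 88 were no longer past the threshold. Sums over runs of animal numbers gave 31 of the 78 and 56 of the 88. On those sums 38 of the 94 index-gene results were still past the threshold. The cause of these shifts was not tested, except that sums over runs leave fewer units and the fit without a filter tests more genes. Depth limits pancreas and soleus most. The main count stands in brackets below.

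With libraries summed over runs of animal numbers, the age counts were 0 (24) in B6 liver, 1 (10) in TH liver, 1 (9) in TH fat and 13 (24) in TH soleus, and age by strain in pancreas was 0 (5). Strain counts on chow at 5 weeks were 2 (7) in liver and 6 (17) in pancreas, at 20 weeks 2 (4) in liver and 5 (10) in fat, and on high-fat 7 (12) in soleus, 0 (2) in pancreas, 1 (8) in fat and 2 (5) in liver. Diet counts at 20 weeks in TH were 2 (16) in liver and 5 (8) in soleus, in TH males 2 (20) in liver, 3 (6) in soleus and 1 (7) in pancreas, and in TH females 0 (1) in liver. At 5 weeks they were 2 (15) in pancreas and, in TH females, 0 (1) in liver and 0 (1) in pancreas. Diet by sex was 0 (1) in liver and 0 (1) in pancreas at 20 weeks and 0 (2) in liver at 5 weeks, and diet by strain 4 (8) in soleus and 0 (1) in pancreas. Sex counts were 1 (3) in liver, 0 (1) in fat and 0 (1) in soleus at 20 weeks and 0 (1) in soleus at 5 weeks. Shares of all genes that passed on these sums follow in the same order. They were 2.86%, 1.92%, 8.16%, 14.8% and 0.105% for age. For strain they were 23.9%, 12.2%, 29.1%, 16.6%, 50.3%, 11.1%, 11.7% and 29%. For diet at 20 weeks they were 9.15%, 54.8%, 5.69%, 39.1%, 2.11% and 1.89%, and at 5 weeks 0.83%, 0.209% and 0%. For diet by sex they were 0.0754%, 0.0374% and 0%, for diet by strain 55.5% and 0.0673%, and for sex 29.4%, 5.72%, 0.12% and 0.0628%.

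With DESeq2, age by strain in pancreas was 3 (5), diet at 20 weeks 1 (0) in B6 pancreas and 13 (8) in TH soleus, diet at 5 weeks 9 (15) in pancreas, 1 (0) in fat of TH females and 2 (0) in liver of TH males, diet by sex at 5 weeks 1 (0) in fat and 4 (2) in liver, diet by strain 2 (1) in pancreas and strain on high-fat 4 (2) in pancreas. With no filter on low counts, diet at 20 weeks was 2 (0) in B6 and 1 (0) in TH pancreas, 5 (8) in TH soleus and 3 (6) in its males, diet by sex in liver 0 (1) at 20 and 1 (2) at 5 weeks, diet by strain 2 (1) in pancreas and 5 (8) in soleus, sex in soleus 0 (1) at both ages, strain 2 (4) in fat at 5 weeks and 4 (2) in pancreas on high-fat. With only the groups compared, diet at 20 weeks in B6 was 2 (0) in pancreas, 1 (0) in soleus, 1 (0) in fat and 6 (3) in liver and in TH females 2 (1) in liver, diet at 5 weeks 3 (1) in pancreas of TH females and 2 (0) in liver of TH males, diet by strain 13 (8) in soleus, sex 3 (1) in fat at 20 and 0 (1) in soleus at 5 weeks, and strain 2 (4) in fat at 5 weeks and 4 (2) in pancreas on high-fat. Without the 8 deviating libraries, diet at 20 weeks in TH males was 2 (0) in fat and sex at 5 weeks 1 (0) in fat.

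With the replicate block, age by strain in pancreas was 3 (5), diet at 20 weeks in TH males 2 (7) in pancreas, diet by sex 0 (1) in liver at 20 weeks, diet by strain 0 (1) in pancreas and strain 2 (4) in fat at 5 weeks. The numbers do not pair the libraries, since libraries with one number had median correlations of 0.0098 in soleus, 0.009 in liver, 0.0057 in pancreas and 0.0017 in fat. With single libraries left out, counts ran from 10 to 17 for diet in TH liver (10 without TH females on high-fat replicate 3), from 3 to 7 for age by strain in pancreas (3 without TH females on chow at 5 weeks replicate 4), and from 0 to 2 for sex in soleus at 5 weeks (0 without TH males on chow replicate 1, 3 or 5). They ran from 13 to 19 for strain in pancreas at 5 weeks, from 4 to 5 for strain in soleus, from 5 to 6 for strain on high-fat in liver and from 22 to 24 for age in TH soleus, and stayed at 33 for age in TH pancreas.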

Other observations

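Mki67 and Top2a in liver and fat of the same animal were correlated at 20 weeks. Tissues were matched by animal number, each value was taken as its deviation from the group mean of log2(CPM + 0.5), and 18 relations were computed with 100000 permutations within groups. Mki67 in liver and fat had a Pearson r of 0.698 over 41 animals at 20 weeks (permutation p = 3e-05, Benjamini-Hochberg adjusted p = 0.00027) and a Spearman rho of 0.643 (permutation p = 0.00017, adjusted p = 0.00153). Without the 2 animals farthest from the median r was 0.629, and as deviations from the mean of each run of animal numbers it was 0.709 over 33 animals. At 5 weeks r was 0.007 over 38 animals (permutation p = 0.965). Top2a in liver and fat had an r of 0.696 at 20 weeks (permutation p = 1e-05, the smallest these permutations can give, adjusted p = 0.00018) and 0.19 at 5 weeks (permutation p = 0.297). Cdk1, the third gene run, had an r of 0.37 at 20 weeks (permutation p = 0.0467, adjusted p = 0.0646) and a rho of 0.3 (adjusted permutation p = 0.129), and 0.269 at 5 weeks (permutation p = 0.13). Mki67 in fat and soleus had an r of 0.528 at 5 weeks (permutation p = 0.00307, adjusted p = 0.00789), which was 0.163 within runs. Further relations with soleus passed at both ages. Top2a in fat and soleus had an r of 0.599 at 5 weeks (adjusted permutation p = 0.0018), which was 0.421 within runs. At 20 weeks it was 0.496 (adjusted permutation p = 0.00642), and 0.468 for Cdk1 (adjusted permutation p = 0.00642). Top2a in liver and soleus had 0.56 at 5 weeks (adjusted permutation p = 0.00364), which was 0.073 within runs. These are associations over animals that share diets, sexes and strains, and the difference between ages was not tested.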
